A study of Mus musculus with 2 samples.

Results

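The cluster of Mir322, Mir503 and Mir351 is a group of microRNA hairpins on the mouse X chromosome, measured here by small RNA sequencing of embryonic limb. Its members were taken by gene symbol: Mir322, Mir503 and Mir351, and the 4 hairpins annotated downstream of them, Mir542, Mir450a-2, Mir450a-1 and Mir450b. All 7 were listed, among 1973 miRNA genes in the deposited tables, and GENCODE M21 names the Mir450a pair Mir450-2 and Mir450-1. The series has 1 group of 2 libraries, both from limb tissue of B6NCrl mouse embryos at 11.5 days, of mixed sex and described as healthy. Replicate 1 was pooled from 109 embryos and replicate 2 from 88, with RNA below 30 nt in size, and no other tissue, age or genotype was measured. The labels give both pools 1 donor identifier without saying what it stands for. Every test between them sets 1 library against the other and holds for these libraries only.

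A miRNA hairpin is cut from a longer transcript and then trimmed to a short duplex, of which either arm, 5p or 3p, can be loaded into an Argonaute protein. Bases 2 to 8 of the loaded arm, the seed, choose the messenger RNAs that are repressed. Mir322 is the mouse counterpart of human MIR424. Together with Mir503 it belongs by seed to the miR-15/16 group, known for repressing cell cycle genes such as Ccnd1 and Cdc25a and, in cultured mouse myoblasts, for promoting withdrawal from the cell cycle during differentiation. Mir351 carries instead the seed of the miR-125 group.

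The mature sequences are shown because their seeds place the members in different target families and because some of them cannot be told apart by a read. They are RefSeq sequences on GRCm38.p6, all from the minus strand of chromosome X, written 5′ to 3′ with the seed in capitals. RefSeq mature sequences matched all 7 members, under 13 names, and hairpin sequences matched 6 of 7.
miR-322-5p: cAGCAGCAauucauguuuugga
miR-322-3p: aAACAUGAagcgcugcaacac
miR-503-5p: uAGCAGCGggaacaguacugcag
miR-503-3p: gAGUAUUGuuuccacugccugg
miR-351-5p: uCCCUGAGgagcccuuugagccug
miR-351-3p: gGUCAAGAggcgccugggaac
miR-542-5p: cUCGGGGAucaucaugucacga
miR-542-3p: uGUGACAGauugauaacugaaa
miR-450a-5p: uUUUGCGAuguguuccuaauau
miR-450a-2-3p: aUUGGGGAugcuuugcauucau
miR-450a-1-3p: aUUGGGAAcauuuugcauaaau
miR-450b-5p: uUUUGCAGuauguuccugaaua
miR-450b-3p: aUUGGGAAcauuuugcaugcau

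For comparison, the 5p arms of miRNAs elsewhere in the genome that carry the seed of miR-322-5p or of miR-351-5p are written the same way.
miR-15a-5p: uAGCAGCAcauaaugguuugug
miR-15b-5p: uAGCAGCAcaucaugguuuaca
miR-16-5p: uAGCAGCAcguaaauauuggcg
miR-195a-5p: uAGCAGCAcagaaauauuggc
miR-497a-5p: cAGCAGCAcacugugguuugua
miR-125a-5p: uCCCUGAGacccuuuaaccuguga
miR-125b-5p: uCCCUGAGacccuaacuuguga

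Beyond the seed these arms differ. Of the 14 positions after base 8, counted from the 5′ end without gaps, miR-322-5p was identical to miR-15b-5p at 9, to miR-15a-5p at 8, to miR-497a-5p at 7 and to miR-16-5p at 5. The seed of miR-503-5p has the same first 6 bases as that of miR-322-5p and another last base. Past base 8 those neighbours were identical at 5 of 14 positions. MiR-351-5p was identical to miR-125b-5p at 2 of 14 positions there, and to miR-125a-5p at 2 of 16.

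Hairpins of the Mir450a pair are shown in full, with both mature arms in capitals, because they hold the same 5p arm.
Mir450a-2: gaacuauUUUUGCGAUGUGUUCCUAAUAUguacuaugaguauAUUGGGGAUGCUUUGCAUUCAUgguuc
Mir450a-1: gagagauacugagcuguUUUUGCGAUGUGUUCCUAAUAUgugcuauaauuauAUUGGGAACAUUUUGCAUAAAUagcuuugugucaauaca

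A read of miR-450a-5p fits both hairpins, and reads that map to several places are in no gene's count in these tables. The counts of this pair can therefore miss that arm, and their levels are uncertain. Their 3p arms differ at 6 of 22 positions. No other member shares a stretch of 20 nt with another annotated miRNA hairpin, and no other mature arm of the cluster occurs in a second hairpin of the RefSeq table. MiR-450a-1-3p and miR-450b-3p share their seed and differ at 2 of 22 positions, both near the 3′ end. A read cut short there fits both hairpins, so the count of Mir450b can miss such reads too.

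The 7 hairpins lie within 6353 bp of chromosome X in mm10, all on the minus strand. From the 5′ end, Mir322 (ENSMUSG00000065418.1) spans chrX:53054255-53054349, Mir503 (ENSMUSG00000076122.1) spans chrX:53053984-53054054 and Mir351 (ENSMUSG00000065503.1) spans chrX:53053255-53053353. After a gap of 3767 bp come Mir542 (ENSMUSG00000076140.1) at chrX:53049403-53049487, Mir450a-2 (ENSMUSG00000076399.1) at chrX:53048299-53048367, Mir450a-1 (ENSMUSG00000065486.1) at chrX:53048154-53048244 and Mir450b (ENSMUSG00000076050.1) at chrX:53047997-53048078. RefSeq places the 3 upstream hairpins inside the span of the long noncoding gene C430049B03Rik, chrX:53053112-53057190. GENCODE M21 ends that gene at 53055046, upstream of them, and has 0 members inside it or inside Gm28730, a noncoding gene annotated between Mir351 and Mir542.

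The files hold 2953085 sense counts in replicate 1 and 3459176 in replicate 2, and levels are given as CPM, the counts per 1000000 sense counts of the library. A count of 0 allows up to 1.02 and 0.867 CPM, from 3 counts of the total. These limits, and all Wilson 95% intervals here, hold for counting error alone, since PCR copies are not independent molecules. Multimapping reads were 24.7% and 23.4% of all reads. The list for limb mesenchyme and cartilage holds Mir196b, Mir10b, Mir214, Mir199a-2, Mir199b and Mir140. Of these markers 6 of 6 were detected, with 16.5% and 15.7% of the sense counts. Mir196b had the most of them, at 72172 and 68466 CPM. Epithelial markers, 7 of 7 detected, held 1.32% and 1.53%, and the endothelial Mir126a held 2.43% and 2.41%. Of the skeletal muscle markers 2 of 5 listed were detected, with 0.0560% and 0.0576%, and Mir1a-1, Mir133a-1 and Mir133a-2 had 0 counts. Of the markers of neurons, 1 of 6 listed was detected, with 0.0205% and 0.0221%, and Mir9-2, Mir124a-1, Mir124a-2 and Mir124a-3 had 0 counts. All 7 of these hairpins at 0 share a 20-nt stretch with another hairpin, so that their reads can be among the multimapping ones, and the low shares of the muscle and neuron lists do not measure those tissues. Erythroid miRNAs held 0.0367% and 0.0481% and the hepatocyte miRNA Mir122 held 0.00217% and 0.00147%.

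The cluster held 8.11% of the sense counts in replicate 1, with a Wilson 95% interval of 8.08% to 8.14%, and 8.33% in replicate 2, with an interval of 8.30% to 8.36%. The mean was 8.22% ± 0.157 (SD, n = 2 libraries, as for every mean that follows). Almost all of it came from Mir322, and the other 6 hairpins together held 0.958% ± 0.0492. All 7 members reached the detection level of 10 CPM in both libraries. On the opposite strand the 7 hairpins had 0 counts in both libraries, which for Mir322 allows up to 0.00141% of its own counts in replicate 1. In tissue, fewer cells of a type and less RNA per cell cannot be told apart, so these are levels of the whole limb.

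Mir322 had 212109 counts in replicate 1 and 253750 in replicate 2, or 71826 and 73356 CPM. By these counts, which leave out multimapping reads, it ranked 3 and 2 among all listed genes and held 88.3% ± 0.375 of the cluster. No other member came near that level in either library.

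Mir503, which follows Mir322 after 200 bp, had 7806 and 8733 counts, or 2643 and 2525 CPM. Mir351, which comes next, had 13538 and 18736 counts, or 4584 and 5416 CPM, and so stood above Mir503 in both libraries although it lies farther downstream. By the same counts Mir503 ranked 57 and 62 among all listed genes, and Mir351 ranked 44 and 41. They took 3.15% ± 0.162 and 6.08% ± 0.600 of the cluster.

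Downstream of the long gap the levels were lower. Mir542 had 4163 and 4655 counts, or 1409.7 and 1346 CPM, and Mir450b, the last hairpin, had 1525 and 1951 counts, or 516 and 564 CPM. The Mir450a pair lay far below both: Mir450a-1 had 186 and 178 counts, or 63.0 and 51.5 CPM, and Mir450a-2 had 52 and 95 counts, or 17.6 and 27.5 CPM. Together the 4 downstream hairpins made up 2.43% ± 0.0621 of the cluster's counts. The level did not follow the position, since Mir351 exceeded Mir503. Mir450b also exceeded the Mir450a pair that precedes it, but the counts of that pair can miss their shared arm.

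**Figure D1:**
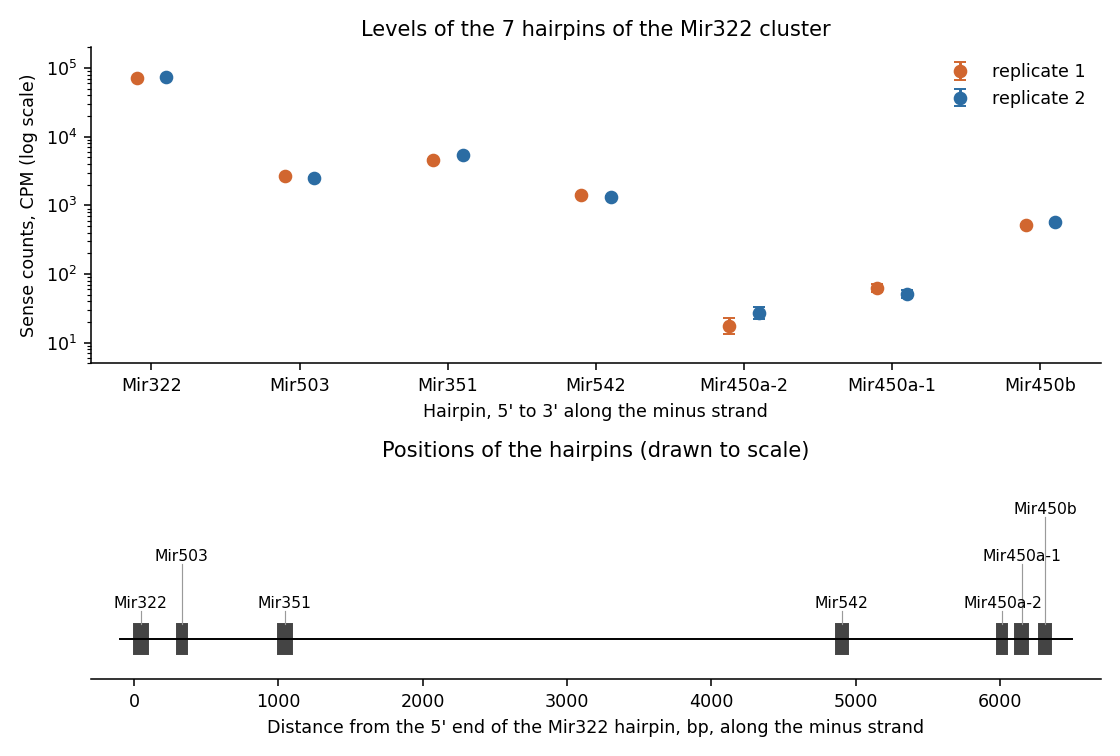
Sense counts of each hairpin in CPM on a log axis, with Wilson 95% intervals, for replicate 1 and replicate 2, above a map of the hairpins drawn to scale in bp from the 5′ end of Mir322. Mir322 stood at 71826 and 73356 CPM, Mir450a-2 at 17.6 and 27.5 CPM, and the order of the 7 levels was the same in both libraries.

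The order of the members, from Mir322 through Mir351, Mir503, Mir542, Mir450b and Mir450a-1 down to Mir450a-2, was identical in both libraries, and the values of neighbours in that order did not overlap. Differences of level between members are given as log2 ratios of counts within a library. They compare whole hairpins, whose 2 arms are not separated, and are not scaled by length: the labels put the RNA below 30 nt, and the tables hold no read lengths or positions. A preference of the library preparation for some sequences would be shared by both libraries and does not show in their SD. With 2 libraries an exact sign-flip test of such a ratio cannot go below p = 0.5, so none was run.

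Mir322 exceeded Mir351, the second most abundant member, by 3.86 ± 0.15 log2 units, which is 14.6-fold. It exceeded Mir503, its nearest neighbour on the chromosome, by 4.81 ± 0.07, or 28.1-fold. It stood 5.72 ± 0.07 above Mir542 and 7.07 ± 0.07 above Mir450b. Over the Mir450a pair, whose counts can miss their shared arm, the ratios were 10.31 ± 0.23 for Mir450a-1 and 11.68 ± 0.43 for Mir450a-2.

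Smaller steps separated the members of middling level. Mir351 was 0.95 ± 0.22 log2 units above Mir503, with 0.79 in replicate 1 and 1.10 in replicate 2, a gap between libraries larger than its counting errors of 0.021 and 0.019. Mir503 was 0.91 above Mir542 in both libraries; the counting error of that ratio, 0.028 in replicate 1 and 0.026 in replicate 2, was larger than its SD. Mir542 was 1.35 ± 0.14 above Mir450b. Between the 2 least abundant members the ratio of Mir450a-1 to Mir450a-2 was 1.37 ± 0.66, with counting errors of 0.23 and 0.18.

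Set against other hairpins with its seed, Mir322 was the main source of counts. The family list for the seed start AGCAGC holds Mir322, Mir503 and 6 listed hairpins of the Mir15, Mir16 and Mir195 groups, and made up 8.50% ± 0.0594 of the sense counts. Mir6342, Mir6353 and Mir6419, which carry the seed of miR-322-5p too, are not in this list and had 0 counts. Mir322 held 85.4% ± 0.676 of that family. Mir15a, the next hairpin, had 4885 and 4487 CPM and held 5.51% ± 0.369. Mir503 held 3.04% ± 0.12, close to Mir15b, with 2018 and 2080 CPM, and to Mir16-1, with 2028 and 1809 CPM. Mir195a had 661 and 644 CPM and Mir16-2 had 534 CPM in each library. Mir195b had 0 counts in both libraries.

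That share depends on reads that are not in the gene counts. MiR-16-5p is identical in Mir16-1 and Mir16-2, so its reads map to both places. With every multimapping read of the files added to this family total, Mir322 would hold 11.2% of it in replicate 1 and 12.5% in replicate 2, a mean of 11.8%, which is an extreme and not an estimate. Mir497, next to Mir195a, is not listed under its own strand and is not in the family total.

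Mir351 was a smaller part of its own seed family. In the list of Mir351 and the Mir125 hairpins with the seed CCCUGAG it held 33.8% in replicate 1 and 37.9% in replicate 2, a mean of 35.9% ± 2.89. Mir125a had 6444 and 6324 CPM and was above Mir351 in both libraries. Mir125b-1 had 2125 and 2101 CPM, and Mir125b-2 had 390 and 438 CPM. MiR-125b-5p is identical in that pair, so their counts can miss it. With all multimapping reads added to this family total, the share of Mir351 would be 0.804% in replicate 1 and 1.05% in replicate 2, a mean of 0.926%.

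**Figure D2:**
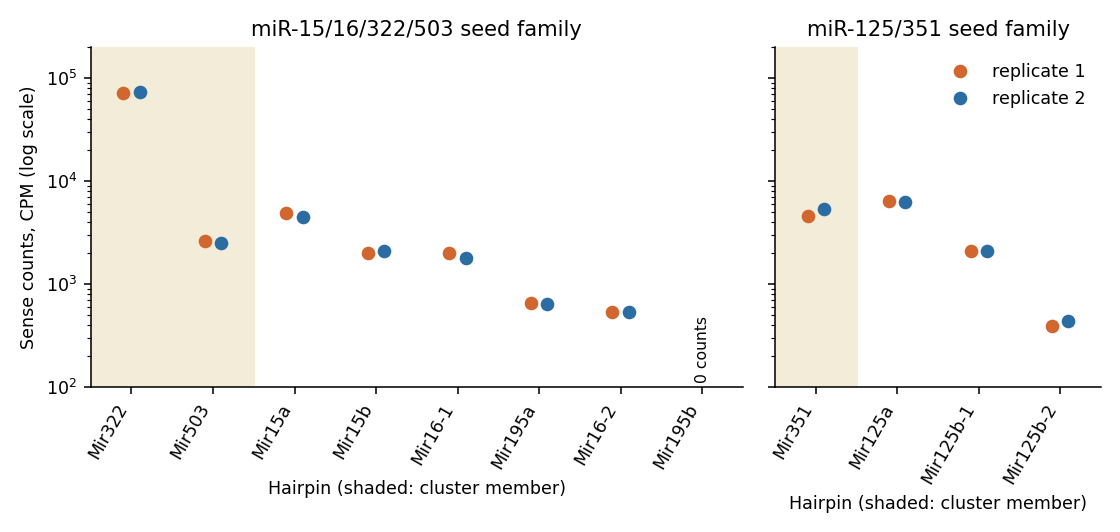
Sense counts in CPM on a log axis, for replicate 1 and replicate 2, of the hairpins of both family lists, cluster members shaded. The list for the seed start AGCAGC, with Mir322 and Mir503, is on the left, and that for the seed CCCUGAG, with Mir351, on the right. Mir322 lay above every other hairpin of its family, at 71826 and 73356 CPM against 4885 and 4487 CPM for Mir15a, whereas Mir351 lay below Mir125a.

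Among miRNA genes of chromosome X the cluster held 76.1% ± 0.476 of the sense counts, and Mir322 alone held 67.2% ± 0.135. The annotation places 120 listed genes there, of which 113 are not members and 29 of those were detected. All X-linked genes together made up 10.8% ± 0.139 of the sense counts. Mir652, the most abundant X-linked gene outside the cluster, had 9936 and 9702 CPM. It was followed by Mir361, with 2439 and 2464 CPM, and Mir188, with 2045 and 2133 CPM. The members occupied places 1, 3, 4, 9, 16, 29 and 32 among the 36 genes of the chromosome that reached 10 CPM in both libraries. Places 29 and 32 are those of the Mir450a pair, whose counts can miss their shared arm. Among the detected genes outside the cluster, Mir374b, Mir92-2, Mirlet7f-2 and Mir19b-2 share sequence with another hairpin, so their counts can miss multimapping reads too. Reads missed from these genes would make the shares of the cluster and of Mir322 too high. The shares of 76.1% and 67.2% therefore hold for the counted reads only.

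**Figure D3:**
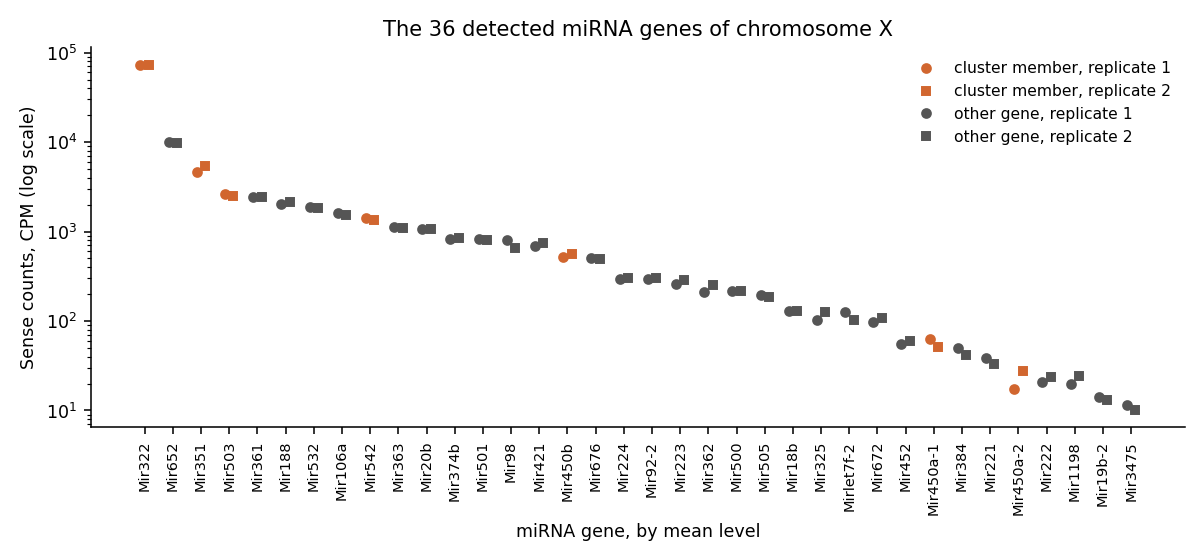
Sense counts in CPM on a log axis of the 36 detected miRNA genes of chromosome X, ordered by mean level, with members of the cluster in orange and other genes in grey, circles for replicate 1 and squares for replicate 2. Mir322 stood at 71826 and 73356 CPM and the next gene, Mir652, at 9936 and 9702 CPM.

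Hairpins of 1 cluster can be cut from 1 transcript, so their unequal counts were set beside those of other clusters. Listed genes on the same strand with gaps of at most 10000 bp were joined, and 12 such clusters had 3 or more detected genes. Mir322 to Mir450b came second in total share, at 8.22%, after the cluster led by Mir17, at 11.8%. Its leading hairpin held 88.3% of its counts, second to Mir23a in its cluster at 96.5%, where all 3 hairpins share sequence with others. Over the 12 clusters the median was 43.8%. Its range of mean CPM, 11.65 log2 units between Mir322 and Mir450a-2, was the widest of the 12, where the median was 5.76. Without hairpins that share a 20-nt stretch with another, a choice made after the values were seen, the range was 7.07 log2 units, below those of the Mir17 cluster, at 9.04, and the Mir411 cluster, at 8.04. These are descriptions of this tissue, with no test.

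**Figure D4:**
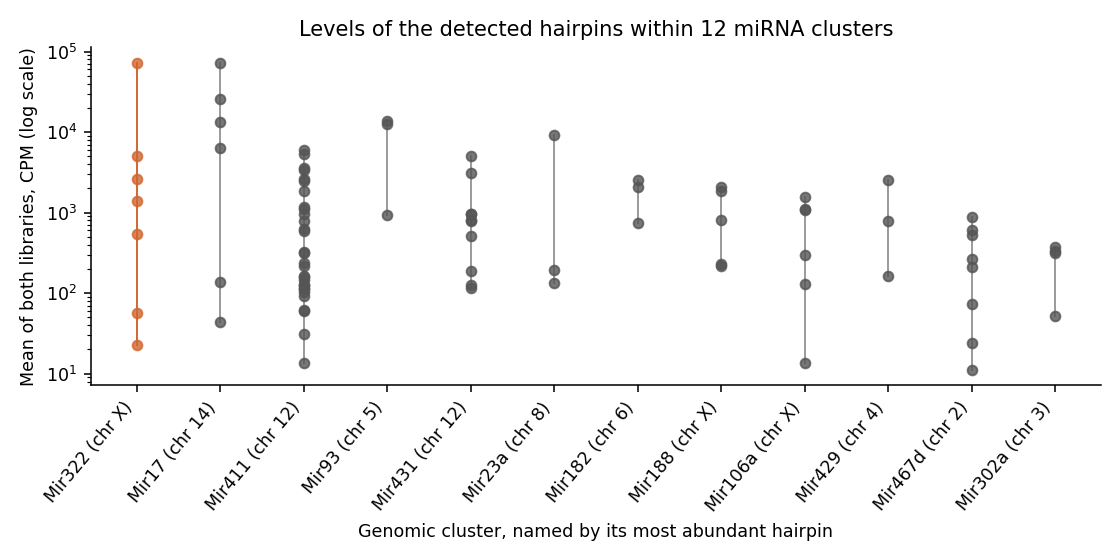
Mean CPM of both libraries, on a log axis, for each detected hairpin of the 12 miRNA clusters, 1 column per cluster named by its most abundant hairpin, with the Mir322 cluster in orange. Its points reach from 72591 CPM for Mir322 to 22.5 CPM for Mir450a-2.

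By level over both libraries, measured as the distance of log2(CPM + 1) over 2 libraries, the gene outside the cluster nearest to Mir322 was Mir17, with 71052 and 72565 CPM, at a distance of 0.02. Mir196b, encoded between Hox genes, came next at 0.10, with 72172 and 68466 CPM, followed by Mir335 at 0.88. The values of Mir322 and Mir196b did not keep 1 order, since Mir322 was the lower in replicate 1 and the higher in replicate 2. Mir101b, Mir382 and Mir361 were nearest to Mir503, at distances between 0.05 and 0.12. For Mir351 the nearest were Mir431, Mir342 and Mir487b, all on chromosome 12, at distances between 0.05 and 0.19. Mir542 was nearest to Mir674, Mir455 and Mir22, and Mir450b to Mir370, Mir206 and Mir16-2, all within 0.10. The Mir450a pair had no gene within 0.2, the nearest being Mir1198, Mir8112 and Mir219a-2 for Mir450a-2, and Mir338, Mir181b-1 and Mir3072 for Mir450a-1. Of these neighbours, Mir101b, Mir487b, Mir16-2, Mir8112, Mir219a-2 and Mir181b-1 share a 20-nt stretch with another hairpin, so their counts can miss multimapping reads. With 2 libraries of 1 tissue, such nearness describes the counted level alone.

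Between the libraries the log2 ratios of the members lay between −0.62 for Mir450a-2 and 0.30 for Mir450a-1. Mir351 was the member with the smallest adjusted p, and it was lower in replicate 1, with a log2 ratio of replicate 1 over replicate 2 of −0.23 and an adjusted p of 2.97e-43 in an exact binomial test with Benjamini-Hochberg adjustment over all 422 tested genes. This test sets 1 library against 1 library and counts every read as independent, so its p-values cover counting error only and are too small where reads are PCR copies. Mir322 was lower in replicate 1 by the same exact test at a log2 ratio of −0.02, with an adjusted p of 0.000279. Mir503 was higher in replicate 1 at 0.08, with an adjusted p of 0.00294 in that exact test, and Mir542 was higher at 0.08, with an adjusted p of 0.0464. The call of Mir542 was lost when total counts set the scale, where its exact test gave an adjusted p of 0.120.

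Mir450b had a log2 ratio of −0.11, Mir450a-1 of 0.30 and Mir450a-2 of −0.62, and none of these passed the exact binomial test, with adjusted p of 0.0901, 0.177 and 0.0607. Thus 4 of 7 members passed, 2 in each direction, where 21.3% of all tested genes passed. Passing was more common at higher levels: at a mean of 1000 CPM or more, 61 of 93 tested genes passed, or 65.6%, and all 4 members of that level did. The median log2 ratio of the members was −0.02, and over all tested genes it was 0.00 (7.64e-06).

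When the binomial error was widened to the overdispersion of the median gene, 11.4% of tested genes passed, and Mir351 was the 1 member that did, with an adjusted p of 2.2e-16 against 0.0855 for Mir322. Widened to the mean overdispersion over genes, 2.84% passed, and Mir351 was again the 1 member, with an adjusted p of 0.0453. Both percentages are over tested genes of all levels, and neither was computed at high levels alone. The genes nearest to Mir351 in level, Mir431, Mir342 and Mir487b, all passed the test widened by the median gene as well. They did not pass the one widened by the mean. The log2 ratio of Mir351, −0.23, compares with a median absolute log2 ratio of 0.08 among the 201 tested genes of 100 CPM or more. The Mir125 hairpins of its seed family list had log2 ratios of 0.04 for Mir125a, with an adjusted p of 0.0276 in the exact binomial test, −0.15 for Mir125b-2, with 0.0357, and 0.03 for Mir125b-1, with 0.551. None of them passed either widened test. In the other family Mir15a and Mir16-1, neighbours on chromosome 14, were higher in replicate 1, at 0.14 and 0.18, and passed both the exact test and the one widened by the median gene, but not the one widened by the mean.

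**Figure D5:**
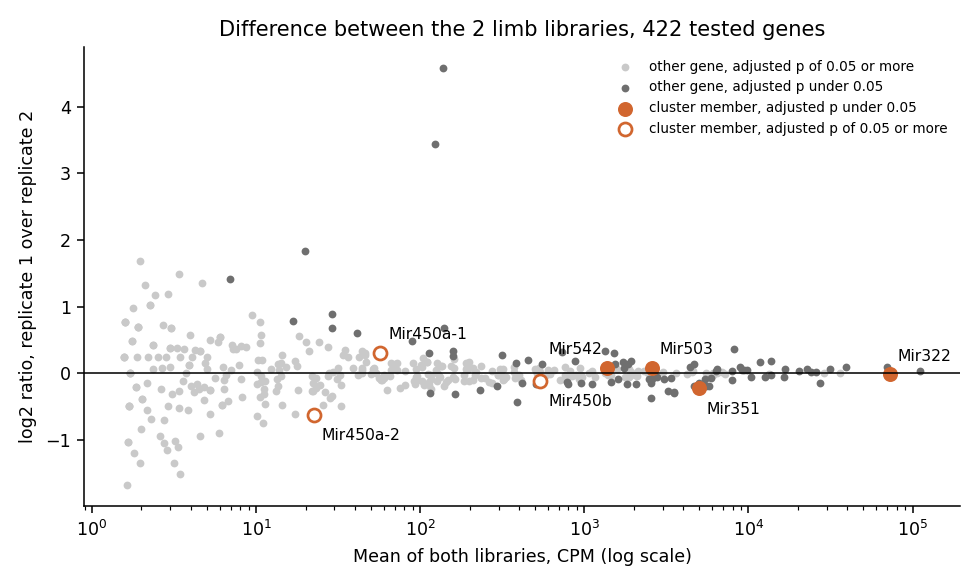
Log2 ratio of replicate 1 over replicate 2 against the mean CPM of both libraries, on a log axis, for the 422 tested genes, with members of the cluster in orange, filled where the adjusted p was under 0.05. Mir351 lay at −0.23, Mir322, Mir503 and Mir542 within 0.08 of 0, and Mir450a-2, the member with the fewest counts, at −0.62.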

How the data were processed

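Raw counts of reads per miRNA gene were deposited, with no normalization, in 1 table per library; the deposited notes name assembly mm10 and GENCODE M4. Aligner and counting tool: not given in the sources used here. The table has 3 count columns; the second held nearly all counts and was read as the sense strand, from the values. Lines for unmapped (23.6% and 23.5%), multimapping and featureless reads (6.45% and 5.39%) stayed out of library sizes and tests.

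Symbols came from GENCODE M21 (1894 of 1973 identifiers matched) and mature sequences from RefSeq. CPM was taken over sense counts, and pair ratios had a prior count of 0.5. Genes with at least 10 counts in all were compared between libraries with an exact two-sided binomial test, scaled by TMM (edgeR 4.0.16, R 4.3.3), Benjamini-Hochberg adjusted, with a threshold of 0.05; DESeq2 1.42.0 gave alternative size factors. This compares the libraries, not conditions. The script was tested on simulated data. Python 3.11.15, scipy 1.17.1 and pandas 2.3.3 were used. Wilson intervals have a confidence level of 95%.

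Named genes were the members, the listed hairpins of both seed families, the 3 genes nearest in level to each member and the 3 most abundant other X-linked genes. Leaders of other genomic clusters were named after their values were seen. Members, lists and tests were chosen with earlier results of these data known.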

Additional observations from a re-analysis of the deposited data

Results flagged for a closer look

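At Mir497b, a listed gene that lies opposite Mir497 on chromosome 11, the opposite-strand column, not part of any comparison, had 2287 counts in the first pool (replicate 1) and 2700 in the other (replicate 2). These counts are a signal outside the main measurement, above the limit of 3 counts. The listed strand held 2 counts in each library. Mir497 carries the seed of Mir322, and the opposite-strand counts amount to 774 and 781 CPM, between the levels of Mir195a and Mir15b. Whether they come from Mir497 was not tested.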

How the results depend on the processing

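The share of the cluster, 8.22% of sense counts, was 3.74% of all reads in the file, 4.89% of mapped reads, 8.035% with both strands and 8.93% without genes that share a 20-nt stretch; single libraries gave 8.11% to 8.33%. The share of Mir322 in its seed family was 87.9% without such hairpins, 84.6% with Mir497 added from the opposite strand and 11.8% with all multimapping reads added; the share of Mir351 in its family was 43.9% and 0.926% under the first and last of these. Additions of Mir497 and of multimapping reads were chosen after seeing the data. The share of chromosome X was 75.8% to 76.4% in single libraries and 76.1% with both strands. It was not computed without hairpins that share a 20-nt stretch or with multimapping reads added. The count of genes called between libraries was 90, and 48 with the median and 12 with the mean overdispersion; other scalings and filters gave 78 to 96. Mir351 kept its call under all 7 settings of the test and a prior count of 5. Mir542 lost its call with total counts, with no count filter and with both strands, Mir450a-2 gained one at a minimum of 100 counts, with an adjusted p of 0.0409 in the exact test, and no log2 ratio of a member changed sign. The cause of these changes was not tested. No paired analysis was possible because the series has 1 group. Depth limits the Mir450a pair most, with 52 to 186 counts a library.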

Other observations

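The 12 different seeds of the members' mature arms were looked up in the RefSeq miRNA table. Outside the cluster and the listed hairpins of both seed families, 8 genes carry one of them, of which 7 are listed in the tables. For the seed of miR-322-5p these are Mir6342, Mir6353 and Mir6419, besides Mir497. For the seed of miR-351-5p they are Mir6367 and Mir6394, for that of miR-542-5p Mir6966, and for the seed shared by miR-450a-1-3p and miR-450b-3p Mir6352. Mir6966 had 1 and 2 counts, and the other 6 listed genes had 0 counts in both libraries, which allows up to 1.02 and 0.867 CPM. These genes were named after their values were seen.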
